A study of Mus musculus with 6 samples.

Results

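The transcripts described here are 10 markers of tissue macrophages in the gastrocnemius of old mice: Adgre1, Lyve1, Cd68, Csf1r, Mrc1, Cd163 and F13a1, and the genes C1qa, C1qb and C1qc of the 3 chains of complement C1q. They were taken by gene symbol from count tables that list 23238 symbols, and each of the 10 stood on 1 line. The mice were wild-type C57/BL6J, 26 months old, and were dosed by mouth over 30 days. The vehicle group received 5% DMSO in saline and the farnesol group received farnesol, a sesquiterpene alcohol, at 350 mg/kg. Each group has 3 libraries of whole muscle RNA, which the titles call biological replicates. The labels do not say whether each library came from its own mouse, and each p-value reflects the variation between these libraries. The series title concerns farnesol and muscle weakness in ageing, and the comparison asks which transcripts differ after farnesol.

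Macrophages that live in muscle lie between the fibres and along vessels, where they clear debris and dying cells. They depend on the receptor Csf1r and its ligands CSF1 and IL-34, and many carry scavenger receptors such as Mrc1, Cd163 and Lyve1. Tissue macrophages are also a main source of C1q, the recognition molecule that starts the classical complement pathway when it binds antibody complexes, dying cells or exposed debris. C1q is assembled from A, B and C chains, so the products of all 3 genes are needed for the complete protein.

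All 10 transcripts had a lower fitted level after farnesol, by a median log2 fold change of −0.27, against −0.01 over all 11674 genes tested, of which 50.9% were below 0. None of the 10 passed an adjusted p of 0.05, and neither did any other gene (0% of genes tested). The clearest values were those of Adgre1, the F4/80 antigen, at 0.487-fold of vehicle (95% interval 0.267 to 0.886, n = 3 and 3), and of Lyve1, a hyaluronan receptor, at 0.741-fold (0.574 to 0.957). These were also the 2 of 10 whose farnesol libraries all lay below all vehicle libraries, as did 4.07% of genes tested. Every other transcript of the 10 had an interval that included no change. The intervals of Mrc1, Cd163, C1qa and C1qc, at 0.955-fold, 0.995-fold, 0.906-fold and 0.869-fold, reached from a clear decrease to a clear increase. In whole muscle, fewer macrophages and less of a transcript per macrophage cannot be told apart.

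The direction shared by the 10 depended most on 1 library. Vehicle replicate 3 was the highest of the 6 libraries for 9 of the 10 transcripts, Cd163 being the exception. Without it, 5 of 10 had a lower fitted level (Adgre1, Lyve1, Cd68, Csf1r and F13a1). The median log2 fold change was then 0.00, where the median of all genes was also 0.00. With any 1 of the other 5 libraries left out, 8 to 10 of the 10 were lower and their median lay between −0.52 (vehicle replicate 2 left out) and −0.24 (farnesol replicate 2 left out). Vehicle replicate 2 was at the other end of its group, with the lowest level of the 6 libraries for 5 transcripts (Cd68, Csf1r and the 3 C1q genes). With vehicle replicate 2 left out, all 10 were lower.

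**Figure D1:**
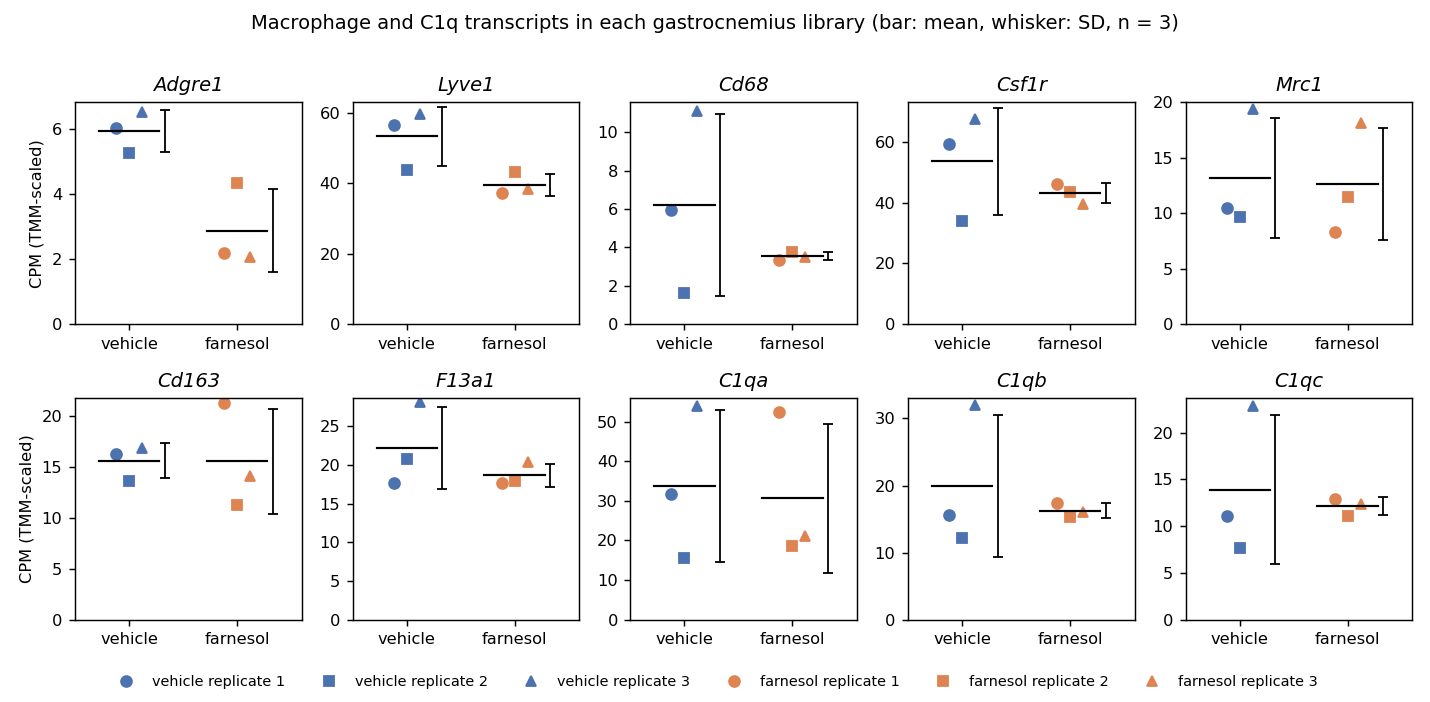
Level of each of the 10 transcripts in each library (y axis, CPM on TMM-scaled library sizes, from 0) in the vehicle and farnesol groups (x axis), with 1 marker shape per replicate number, the mean as a line and the SD of 3 libraries as a whisker. Adgre1 and Lyve1 have groups that do not overlap; vehicle replicate 3 is the highest library in 9 of the 10 panels, and farnesol replicate 1 stands high for C1qa and Cd163.

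Levels are given in CPM, counts brought to a common library size, on library sizes scaled by the trimmed mean of M-values (TMM). Libraries held 9895700 to 12707751 counts, and the 10 transcripts had between 16 counts (Cd68 in vehicle replicate 2) and 798 counts (Csf1r in vehicle replicate 3). The 6 markers of muscle fibres (Acta1, Ckm, Myh4, Myh1, Tnnt3 and Mylpf) summed to 95080 to 142600 CPM, as the tissue label says. Their lowest sum was in vehicle replicate 3, where the macrophage transcripts were highest, and the other 5 libraries held at least 122100 CPM. The part of this difference in the results was not tested. The ribosomal RNA precursor Rn45s took 4.97% of farnesol replicate 1 and 9.92% to 15.4% of the others.

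Adgre1 encodes F4/80, an adhesion receptor of the macrophage surface long used to mark these cells in mice (chromosome 17, 57358581 to 57483529, mm10). It was measured at 6.04, 5.26 and 6.53 CPM in vehicle replicates 1, 2 and 3 and at 2.20, 4.35 and 2.06 CPM in farnesol replicates 1, 2 and 3. Every farnesol library lay below every vehicle library, and farnesol replicate 2 came closest to the vehicle range. Farnesol over vehicle gave a log2 fold change of −1.04 (SE 0.42; unadjusted p = 0.0207 and adjusted p = 1.0 over all genes, edgeR). In this fit 1.26% of genes were lower with an unadjusted p under 0.05, and Adgre1 and Lyve1 were the 2 of the 10 among them. Adgre1 was lower in 6 of 6 fits with a library left out, between −1.47 and −0.86. A mean of 48.2 counts per library gives a counting error of 14.4%, which is more than the 10.7% spread seen in vehicle and less than the 44.7% in farnesol.

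Csf1r is the receptor tyrosine kinase through which CSF1 and IL-34 keep macrophages alive (chromosome 18, 61105572 to 61131139). Vehicle replicates 1, 2 and 3 stood at 59.4, 33.9 and 67.6 CPM, and farnesol replicates at 46.2, 43.4 and 39.7 CPM. The 3 farnesol values fell inside the wide vehicle range, with vehicle replicate 2 the lowest of all 6. Its fitted log2 fold change was −0.32 (SE 0.21), lower in 6 of 6 fits with a library left out, and −0.11 without vehicle replicate 3. In GENCODE vM21 the end of Csf1r overlaps Hmgxb3 on the opposite strand. Whether the counting used strand is not given, so some counts of either gene may belong to the other; Hmgxb3 stood at 10.95 ± 3.10 and 9.55 ± 2.13 CPM (SD, n = 3).

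Cd68 is a glycoprotein of lysosome membranes in phagocytes (chromosome 11, 69664213 to 69666170). It stood at 5.94, 1.62 and 11.1 CPM in vehicle replicates 1, 2 and 3, and at 3.35, 3.77 and 3.51 CPM in the farnesol replicates. The vehicle libraries spanned more than the distance between the groups, with a coefficient of variation of 76.3% against 5.95% in farnesol and a counting error of 13.6%. Its log2 fold change of −0.82 (SE 0.50) became −0.10 when vehicle replicate 3 was left out, and −1.27 when vehicle replicate 2 was. With all libraries it was −0.49 in limma-voom (SE 0.55).

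Lyve1 marks a perivascular subset of resident macrophages and also lymphatic endothelium (chromosome 7, 110850607 to 110862953). Vehicle replicates 1, 2 and 3 held 56.6, 43.7 and 59.8 CPM and farnesol replicates 37.3, 43.1 and 38.3 CPM. The groups did not overlap, but vehicle replicate 2 and farnesol replicate 2 were almost equal. Lyve1 had a log2 fold change of −0.43 (SE 0.18; unadjusted p = 0.0238 and adjusted p = 1.0 over all genes, edgeR), which ranged from −0.56 to −0.34 over the 6 fits that omit 1 library. It had an unadjusted p under 0.05 in 2 of those fits, and Adgre1 in 3 of its 6. Of the 6 lymphatic markers fixed beside it (Prox1, Pdpn, Flt4, Mmrn1, Reln and Ccl21a), 3 were lower and 3 higher (median 0.05 on the log2 scale). They summed to 13.3 to 23.0 CPM in vehicle and 17.3 to 20.5 CPM in farnesol libraries. Prox1, the defining transcription factor of that endothelium, had 2 to 35 counts per library and Flt4, its growth factor receptor, a log2 fold change of −0.96 (SE 0.53). The part of lymphatic vessels in the Lyve1 values was not tested.

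Mrc1, the mannose receptor CD206, binds glycoproteins for uptake (chromosome 2, 14229414 to 14332023). It was measured at 10.5, 9.61 and 19.4 CPM in vehicle replicates 1, 2 and 3 and at 8.29, 11.5 and 18.2 CPM in the farnesol replicates. In each group replicate 3 was the high library and the others stood at or below 11.5 CPM. A log2 fold change of −0.07 (SE 0.32) became 0.33 when vehicle replicate 3 was left out, and −0.42 when farnesol replicate 3 was. The 95% interval for the fold ran from 0.604 to 1.51.

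Cd163, the scavenger receptor for haemoglobin bound to haptoglobin, lies on chromosome 6 (124304636 to 124330529). Its vehicle values were close together, at 16.3, 13.7 and 16.9 CPM, and its farnesol values were spread around them, at 21.2, 11.2 and 14.1 CPM in replicates 1, 2 and 3. It was the 1 transcript of the 10 with its highest library in the farnesol group, farnesol replicate 1. Fitted over all libraries it had a log2 fold change of −0.01 (SE 0.26), with a 95% interval of the fold from 0.687 to 1.44, and it was above 0 in 4 of 6 fits with a library left out. In the same library the ratio of Cd163 to Csf1r CPM was 0.460, against 0.249 to 0.403 in the other 5.

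F13a1 encodes the A subunit of coagulation factor XIII, which cross-links fibrin and is made by macrophages and by megakaryocytes (chromosome 13, 36867178 to 37050244). It stood at 17.7, 20.7 and 28.1 CPM in vehicle replicates 1, 2 and 3 and at 17.7, 17.9 and 20.4 CPM in the farnesol replicates. The other 5 libraries lay between 17.7 and 20.7 CPM and vehicle replicate 3 stood above them. Its log2 fold change of −0.25 (SE 0.23) was −0.04 without that library. Of 6 platelet markers 4 were tested and all 4 had fitted values above 0, with a median of 0.33. Among them were the chemokine Ppbp at 0.22 (SE 0.60), Treml1 at 0.998 (SE 0.79) and Gp1bb at 0.01 (SE 0.41). With any 1 library left out, 1 of the 4 was lower. The 6 platelet markers summed to 19.3 to 26.5 CPM in vehicle and 21.3 to 34.3 CPM in farnesol libraries, and Pf4, which macrophages also express, is one of them. Gp9 had 0 to 17 counts per library. The part of platelets in the F13a1 values was not tested.

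**Figure D2:**
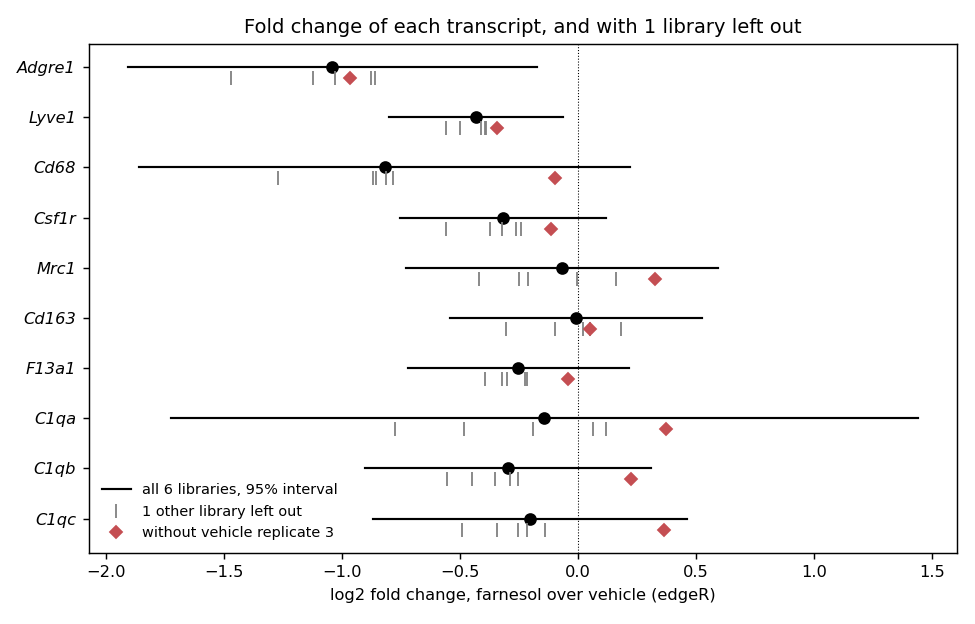
Log2 fold change of each transcript (x axis, farnesol over vehicle, edgeR) with its 95% interval from all 6 libraries (black), and below it the value with each library left out in turn (grey ticks; red diamond, without vehicle replicate 3). The intervals of Adgre1 and Lyve1 lie below 0 and the other 8 include it; without vehicle replicate 3, Mrc1, Cd163 and the 3 C1q genes lie above 0.

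The C1q genes lie next to one another on the minus strand of chromosome 4, C1qb at 136880126 to 136886200, C1qc at 136889801 to 136892936 and C1qa at 136895916 to 136898844, within 18719 bases. Their longest annotated transcripts are of similar length, 1040 (C1qa), 1088 (C1qb) and 1203 bases (C1qc). The reference used held no promoter sequence for C1qa. The 250 bases before a RefSeq transcript start (GRCm38.p6) are shown for its neighbours C1qb and C1qc. They are printed 5′ to 3′ on the gene's strand, and capitals mark GAGGAA, the core of the purine-rich box bound by the macrophage factor PU.1, or its reverse complement. C1qb is chr4:136886201-136886450 and C1qc is chr4:136892915-136893164, both on the minus strand. The C1qc window precedes a RefSeq transcript start inside the gene span given above, so its last 22 bases overlap that span.
C1qb: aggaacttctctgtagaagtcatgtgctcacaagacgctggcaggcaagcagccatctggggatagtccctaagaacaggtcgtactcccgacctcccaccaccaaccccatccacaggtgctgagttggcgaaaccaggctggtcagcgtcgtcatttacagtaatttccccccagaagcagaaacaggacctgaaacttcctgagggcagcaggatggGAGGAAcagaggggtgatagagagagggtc
C1qc: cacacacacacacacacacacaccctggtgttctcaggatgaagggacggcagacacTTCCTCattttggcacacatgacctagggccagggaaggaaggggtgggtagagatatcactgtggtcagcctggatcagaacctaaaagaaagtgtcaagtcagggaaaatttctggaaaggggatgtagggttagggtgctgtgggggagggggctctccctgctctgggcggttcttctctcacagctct

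Each of these windows holds 1 match, beginning 30 bases before the start used in C1qb and 193 bases before that used in C1qc. The search covered 7 promoter windows from 6 of the 10 genes, and Csf1r, on chromosome 18, was among the genes not searched. The match stood in at least 1 window of 5 of the 6 (C1qb, C1qc, Cd68, F13a1 and Mrc1). F13a1 had another window, inside the gene span, with 0 matches. Counted by window and not by gene, 23.3% of all 32851 promoter windows of this length hold the match. A second motif, TGANTCA, the site of AP-1 factors, was found in Cd68 alone of the 6 and in 6.75% of all windows. Both were searched on both strands and did not overlap in these promoters. A match describes letters in the window and not a bound site.

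C1qb stood at 15.6, 12.1 and 32.0 CPM in vehicle replicates 1, 2 and 3 and at 17.5, 15.3 and 16.0 CPM in the farnesol replicates. C1qc stood at 11.1, 7.69 and 22.9 CPM and at 12.96, 11.1 and 12.4 CPM in the same order. For both chains vehicle replicate 3 was the highest library and vehicle replicate 2 the lowest, and the 3 farnesol libraries lay close together between them. The spread among farnesol libraries, 6.71% for C1qb and 8.07% for C1qc, was no larger than counting error (7.08% and 8.35%), while in vehicle it was 53.1% and 57.3%. C1qb had a log2 fold change of −0.30 (SE 0.29), which was 0.23 without vehicle replicate 3. For C1qc the same values were −0.20 (SE 0.32) and 0.37. With all libraries limma-voom gave −0.20 for C1qb and −0.09 for C1qc.

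C1qa, the A chain, departed from the other chains in 1 library. It was measured at 31.6, 15.7 and 53.9 CPM in vehicle replicates 1, 2 and 3 and at 52.4, 18.5 and 21.1 CPM in farnesol replicates 1, 2 and 3. Farnesol replicate 1 came close to vehicle replicate 3, although its C1qb and C1qc levels were near those of the other farnesol libraries. In that library C1qa made up 63.3% of the summed C1q CPM, against 41.2% to 54.2% in the other 5. The share of C1qb there was 21.1% (95% exact binomial interval 18.5% to 23.8%, counting error only), below the intervals of 4 other libraries, which began at 26.9% or more, and overlapping that of vehicle replicate 1 (23.3% to 30.5%). Over all libraries C1qa had a log2 fold change of −0.14 with the widest error of the 10 in edgeR (SE 0.62, fold 0.302 to 2.72); in limma-voom its SE was 0.37, below those of Cd68 (0.55) and Adgre1 (0.42). It was −0.78 without farnesol replicate 1 and 0.37 without vehicle replicate 3.

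**Figure D3:**
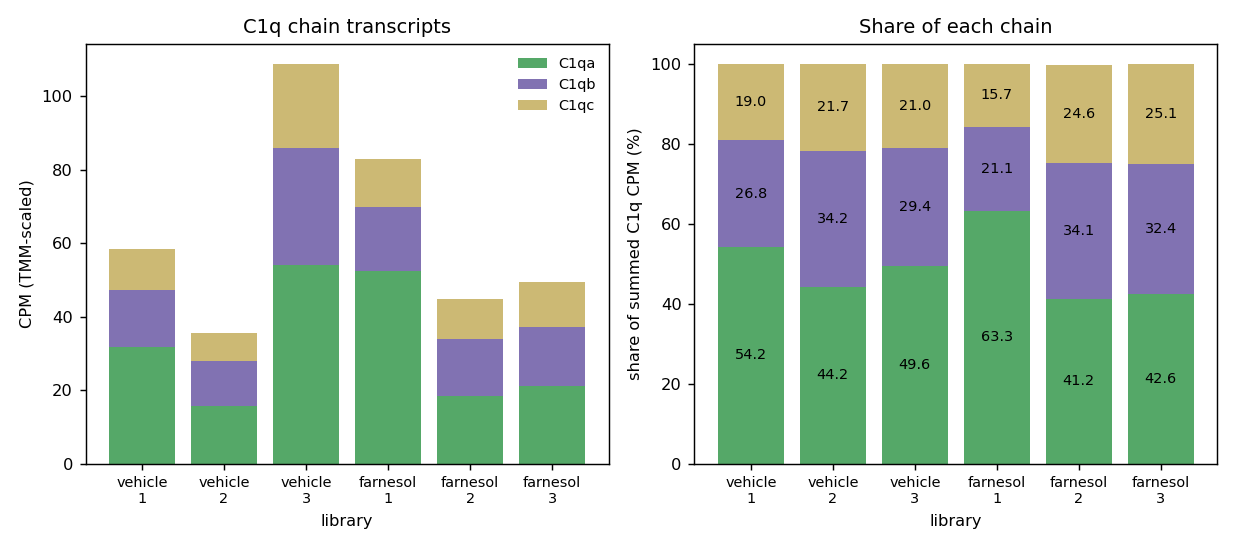
Left, level of the 3 C1q chain transcripts in each library (y axis, CPM from 0, stacked); right, share of each chain in their sum (y axis, %). Vehicle replicate 3 has the highest sum, 108.7 CPM, and vehicle replicate 2 the lowest, 35.5 CPM; C1qa holds 63.3% in farnesol replicate 1 and 41.2% to 54.2% elsewhere.

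The summed C1q level was 58.4, 35.5 and 108.7 CPM in vehicle and 82.8, 44.9 and 49.4 CPM in farnesol replicates 1, 2 and 3. Set against Csf1r in the same library, C1q stood at 0.982, 1.05 and 1.61 in vehicle and 1.79, 1.03 and 1.24 in farnesol, so the groups overlapped on this scale too. The ratio of Lyve1 to Mrc1 CPM was 5.41, 4.55 and 3.08 in vehicle and 4.50, 3.76 and 2.11 in farnesol, again with overlap.

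Divided by the length of the longest annotated transcript, levels in vehicle ran from C1qa at 32.4 ± 18.5 CPM per kb (SD, n = 3) through Lyve1 (18.4 ± 2.94), C1qb (18.3 ± 9.72), C1qc (11.6 ± 6.62) and Csf1r (11.4 ± 3.74) to F13a1 (5.62 ± 1.36), Cd68 (5.06 ± 3.86), Cd163 (3.51 ± 0.385), Mrc1 (2.45 ± 1.01) and Adgre1 (1.84 ± 0.197). Only between Csf1r and F13a1 did the vehicle libraries of neighbours in this order not overlap. The libraries read tags near the 3′ end, so counts need not scale with length and this order depends on the division. By CPM, Csf1r (53.7 ± 17.6) and Lyve1 (53.3 ± 8.49) had the highest vehicle means, above C1qa (33.7 ± 19.2).

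**Figure D4:**
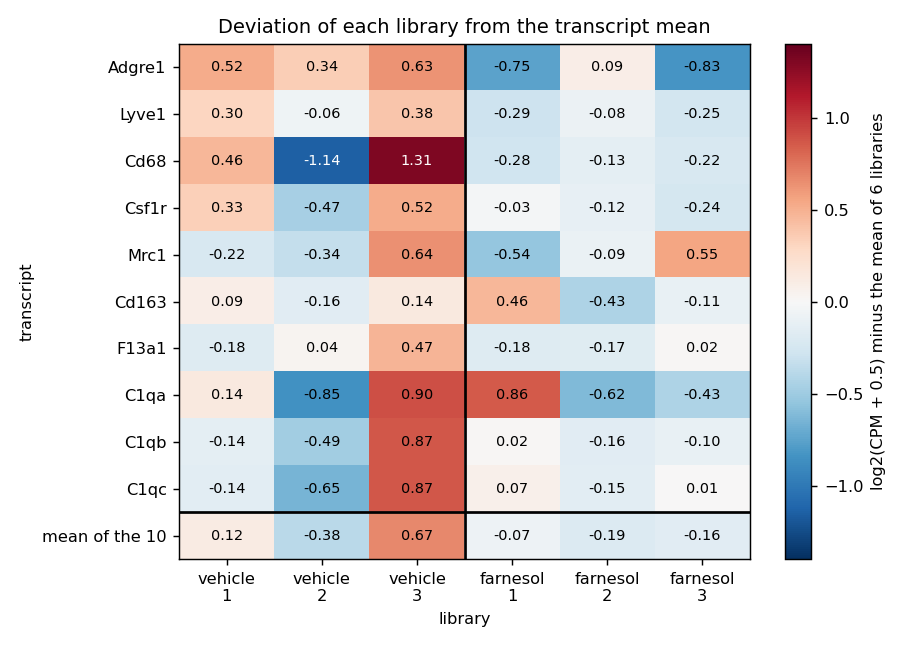
Deviation of each library (columns) from the mean of 6 libraries for each transcript (rows), in log2(CPM + 0.5), with the mean over the 10 in the bottom row. Vehicle replicate 3 is above the mean for all 10 and vehicle replicate 2 below it for 8; the mean over the 10 is 0.67 and −0.38 in these libraries and −0.19 to −0.07 in the farnesol libraries.

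Other genes of macrophages followed the same libraries. Of 19 general myeloid genes 15 were tested: 12 were lower and 3 higher, at a median log2 fold change of −0.17, and none past the threshold. Mpeg1, a pore-forming protein of phagocytes, had −1.15 (SE 0.67), Laptm5, a lysosomal membrane protein of blood cells, −0.40 (SE 0.30), and Itgam, the CD11b chain of complement receptor 3, −0.72 (SE 0.54). With vehicle replicate 3 left out that median was 0.18 and 7 of 15 were lower. Of 12 further resident macrophage genes 9 were tested and 8 were lower, with a median of −0.17. Folr2, a folate receptor, had −0.88 (SE 0.66), Clec10a, a lectin, −0.38 (SE 0.32) and the chemokine Pf4 0.43 (SE 0.33). Leaving out the same library gave a median of 0.07, with 4 of 9 lower. No gene of either list had an unadjusted p under 0.05.

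Of 7 markers of recruited monocytes 2 passed the filter on low counts, and vehicle replicate 3 was the highest library for this list too, at 0.56 above the 6-library mean on the log2 scale. The chemokine receptor Ccr2 stood at 5.96 ± 2.47 and 3.72 ± 0.715 CPM (fitted change −0.69 on the log2 scale, SE 0.41), and Ly6c2 at 1.96 ± 0.526 and 2.32 ± 1.59 CPM. Lysosomal and lipid-handling genes of phagocytes split into 5 lower and 4 higher of 9 tested, with a median of 0.00. Vehicle replicate 3 was again the highest library, at 0.31 above the 6-library mean on the log2 scale. With it left out, 3 of 9 were lower and the median was 0.135. Of these 9 genes Apoe, the lipid carrier, had a log2 fold change of 0.39 (SE 0.26) with all libraries. Lipa, the lysosomal acid lipase, had −0.48 (SE 0.34) and Lgmn, a lysosomal protease, 0.30 (SE 0.33).

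Of 10 genes that maintain macrophages, ligands and lineage factors, 6 were higher and 4 lower, with a median of 0.10. That median ran from −0.05 to 0.18 over left-out libraries and was below 0 in 3 of the 6 fits (vehicle replicate 1, farnesol replicate 2 or farnesol replicate 3 left out); its difference from the 10 was not tested. Csf1 stood at 5.04 ± 2.29 and 4.39 ± 1.61 CPM, Il34 at 7.40 ± 0.353 and 8.66 ± 1.97 CPM, and Spi1, which encodes PU.1, at 2.62 ± 0.954 and 2.87 ± 1.42 CPM in vehicle and farnesol. In 2 of the 10 the groups did not overlap, as in 8.82% of genes tested: Cebpb, a factor of myeloid and many other cells, had −0.34 (SE 0.18) and Nr1h3, the oxysterol receptor LXRα, 0.40 (SE 0.24). Neither passed the threshold.

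Beyond C1q, the complement genes showed no common direction. The proteases that C1q carries, C1ra and C1s1, stood at 18.6 ± 2.44 and 19.9 ± 4.11 CPM and at 10.3 ± 1.203 and 12.5 ± 3.40 CPM in vehicle and farnesol. C3, the central component, stood at 61.3 ± 9.77 and 54.1 ± 9.43 CPM (fitted change −0.18 on the log2 scale, SE 0.18), and C4b at 13.05 ± 6.41 and 10.8 ± 0.986 CPM (−0.27, SE 0.32). Of the cascade genes 6 of 11 were tested, 3 in each direction. Of 11 tested regulators 9 were higher and 2 lower, with a median of 0.16. Serping1, the inhibitor that removes C1r and C1s from C1q, had 0.25 (SE 0.16), Cfd, the adipose-derived factor D, 0.33 (SE 0.25), and Cd59a, which blocks the membrane attack complex, 0.21 (SE 0.21). Without farnesol replicate 1 the median of the regulators was −0.02, with 6 of 11 lower.

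Complement receptors numbered 5 lower and 3 higher of 8 tested, with a median of −0.25 that was 0.06 without vehicle replicate 3. Lrp1, an uptake receptor for C1q-coated cells that many cell types express, stood at 54.8 ± 8.39 and 43.7 ± 3.21 CPM. Its log2 fold change was −0.33 (SE 0.17), and it did not pass the threshold. All its farnesol libraries lay below all its vehicle libraries, as did those of 4.07% of genes tested. C5ar2 had a log2 fold change of 1.43 (SE 0.89) from means of 0.504 CPM in vehicle and 1.4004 CPM in farnesol, and Itgam, given above, also belongs to this list.

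**Figure D5:**
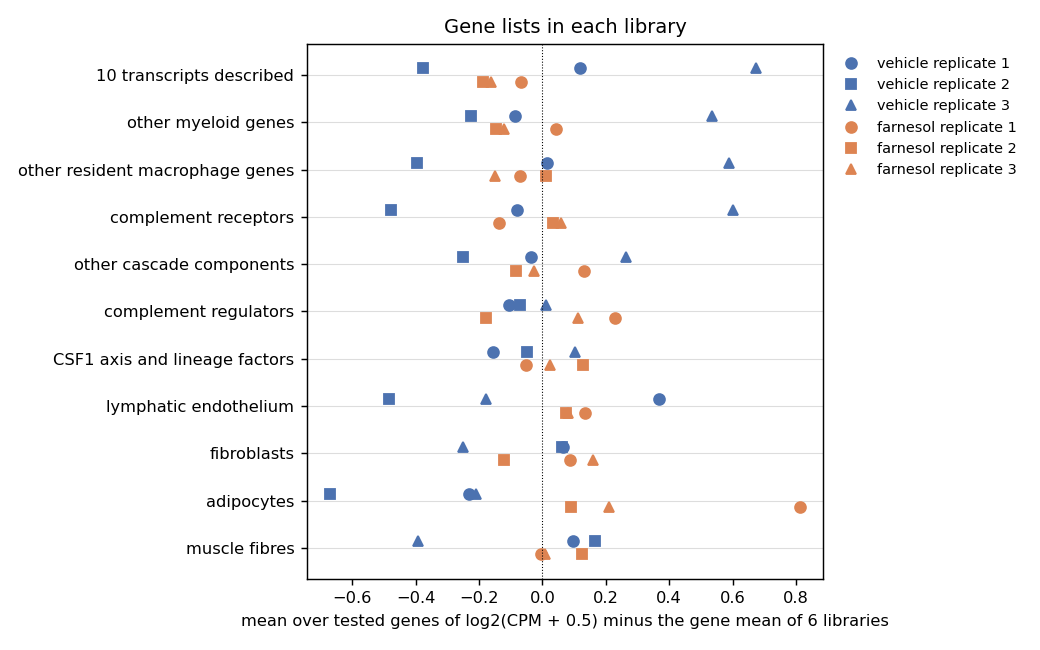
Mean over the tested genes of each list (rows) of log2(CPM + 0.5) minus the gene's mean over 6 libraries (x axis), 1 point per library. The 10 transcripts, the other myeloid and resident macrophage genes, the complement receptors and the other cascade components have vehicle replicate 3 highest (0.26 to 0.67) and vehicle replicate 2 lowest (−0.48 to −0.23); muscle fibre genes have vehicle replicate 3 lowest (−0.39).

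Markers of the other cell types that whole muscle holds were set beside these values. In blood endothelium 3 of 6 markers were lower, with a median of 0.00. Vehicle replicate 3 was the highest library for this list as well, at 0.30 above the 6-library mean on the log2 scale, and with it left out 1 of 6 was lower and the median was 0.19. The median was −0.17, with 5 of 6 lower, when vehicle replicate 1 or farnesol replicate 1 was left out. The part of endothelium in the macrophage values was not tested. Pecam1 stood at 32.3 ± 2.82 and 36.7 ± 5.59 CPM. Fibroblast markers were 2 lower and 4 higher, with a median of 0.11, and Dcn stood at 655 ± 36.7 and 685 ± 37.3 CPM. Dpt, the fibroblast marker of smallest unadjusted p, stood at 28.5 ± 2.51 and 36.9 ± 3.25 CPM (fitted change 0.37 on the log2 scale, SE 0.19). Its groups did not overlap, as in 8.82% of genes tested. All 4 tested mast cell markers had fitted values above 0, and Mcpt4, a mast cell protease, stood at 1.85 ± 0.285 and 4.34 ± 0.960 CPM (fitted change 1.22 on the log2 scale, SE 0.47). All 5 adipocyte markers had fitted values above 0, with a median of 0.88. In 3 of them the groups did not overlap, as in 8.82% of genes tested in either direction (555 of 11674 were higher). They were Cidec, a lipid droplet protein (1.84-fold, 95% interval 1.26 to 2.67), the leptin gene Lep (2.04-fold, 1.197 to 3.49) and Plin1, a lipid droplet coat protein (2.44-fold, 1.17 to 5.08). None passed an adjusted p of 0.05 in edgeR. The 5 adipocyte markers summed to 340.1 CPM in farnesol replicate 1, the library with the high C1qa share, against 160.3 to 285.3 CPM elsewhere. Fabp4 alone held 225.1 CPM there and 227.4 CPM in vehicle replicate 3. The part of fat tissue in the C1qa values was not tested. Lymphocyte markers were near 0 in every library, at a summed 0 to 1.498 CPM over 8 genes with none tested, and dendritic cell markers summed to at most 5.78 CPM, with Itgax at 0 to 2 counts. Of 6 neutrophil markers Ly6g had no line in the tables and 1, S100a8, was tested.

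Over the 6 libraries, the genes outside the 10 whose log2 CPM was most like the mean of the 10 were Osbp2 (Pearson r = 0.996), Rrs1 (0.987), Srfbp1 (0.985), Psmf1 (0.984) and Tmem199 (0.982). With 11674 genes and 6 points that share libraries, 94 other genes had an r over 0.9, and these are given as a description of likeness in these libraries.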

How the data were processed

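Per the labels' protocols, 500 ng of gastrocnemius RNA went into each Lexogen QuantSeq library, a 3′ tag method. The deposited files, 1 for each library, give raw counts of reads by gene symbol. Bowtie2, bedtools and mm10 are named in the submitters' processing notes; versions, annotation and use of strand: not given in the sources used here. Lines with the same symbol were summed (35 symbols). In edgeR 4.0.16 (R 4.3.3), filterByExpr, TMM scaling and glmQLFit with robust estimation were applied to the whole table and glmQLFTest to farnesol against vehicle, with Benjamini-Hochberg adjustment over 11674 genes. SE was computed as |log2 fold change| divided by √F, and 95% intervals use the t distribution. Centred values used a pseudocount of 0.5 CPM. A count of 0 allows up to 3 counts, or 0.251 to 0.310 CPM; this covers counting error only. The fit was tested on simulated data with larger changes than those fitted for these transcripts. That test does not show how often changes of their size would be found. Positions and promoters are from RefSeq GRCm38.p6, transcript lengths from GENCODE vM21.

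The 10 members and all lists were chosen with earlier results of these data known. Named genes are the 10, up to 3 of smallest unadjusted p per list, and defining markers; Hmgxb3, Csf1, Il34, Spi1, C1ra, Ly6c2, Dcn, Pecam1, Prox1, Itgax and Gp9 were named for their roles. Alternatives were other filters, scalings and tools (DESeq2 1.42.0, limma 3.58.1 voom), a replicate block, and each library left out. Deviations of same-numbered libraries had correlations of 0.05, 0.07 and −0.01 across genes, against −0.09 to 0.04 for differently numbered ones. Values this small cannot decide whether libraries were paired. The titles only number the replicates, so the main fit does not take the numbers as pairs.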

Additional observations from a re-analysis of the deposited data

How the results depend on the processing

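No member passed an adjusted p of 0.05 under any alternative run. Over all genes the count of 0 became 13 in edgeR without the filter on low counts; with a library left out it was 0 to 3, the 3 arising without vehicle replicate 2. The 351 genes with an unadjusted p under 0.05 became 633 without the filter and 233 with a mean of at least 5 CPM, which tests fewer genes and drops Adgre1. With the replicate number as a block, 0 genes passed, 428 had an unadjusted p under 0.05, the members' median was −0.20, and no call changed. Over left-out libraries the members' median ranged from −0.521 (vehicle replicate 2 left out) to 0.00465 (vehicle replicate 3 left out). In limma-voom it was −0.22. Limma-voom and the replicate block gave Cd68 −0.493 and −0.517, C1qb −0.197 and −0.176, C1qc −0.0876 and −0.062, Mrc1 −0.108 and −0.058, and Cd163 −0.06 and −0.0472. Scalings by DESeq2 size factors or without Rn45s left it at −0.27.

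Values turned above 0 in these fits. Without vehicle replicate 3 C1qa was 0.373, C1qb 0.227, C1qc 0.365, Mrc1 0.328 and Cd163 0.0519. C1qa was 0.121 without farnesol replicate 2 and 0.0667 without farnesol replicate 3, and ran from −0.776 to 0.373 over left-out libraries. Cd163 was 0.0227 without vehicle replicate 1, 0.182 without farnesol replicate 2 and 0.0532 without farnesol replicate 3, with a lowest value of −0.304. Mrc1 was 0.162 without farnesol replicate 1 and −0.417 at its lowest, C1qb −0.552 and C1qc −0.491. The cause was not tested. Of 139 member values under alternatives, 128 were below 0, and the 11 above 0 all came from fits with a library left out. The other alternatives refit the same libraries, so their values are not separate evidence of direction. Depth limits Adgre1 and Cd68 most, at means of 48.2 and 54.3 counts per library.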
